A study of Mus musculus with 6 samples.

Results

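Genes that are used to mark tanycytes and astrocytes, 6 in all, were followed through single cells sorted from mouse hypothalamus. Vim, Nes, Gfap and Gja1 were measured in a larger set of 265 genes, and Rax and Sox9 in a smaller set of 75 genes. The 6 were chosen by name from 329 genes in both sets together, which hold further genes of both cell types. Each of the 6 had molecules in some libraries and was at 0 in every cell of another. Within a library, most of them were found in about the share of cells that sequencing depth and the gene's own total of molecules give. Gaps were wider for Gja1 and Nes in 1 library each, and for Nes the expected share was raised by 1 cell. A share close to that expectation does not show that the cells were alike.

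Tanycytes are the glial cells that line the floor and lower walls of the third ventricle and send long processes into the hypothalamus. They carry the intermediate filament proteins vimentin (Vim) and nestin (Nes), and the homeobox transcription factor Rax marks them among adult hypothalamic cells. Astrocytes build their filaments from glial fibrillary acidic protein (Gfap), couple to each other through gap junctions of connexin 43 (Gja1), and depend on the transcription factor Sox9. Several of these genes are made by more than 1 cell type, Vim also by vessel and immune cells, Gja1 and Sox9 also by tanycytes, and Gfap by some tanycytes.

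The cells came from C57/Bl6 mice with the genotype KLB-CRE; Ai14, in which tdTomato marks any cell whose lineage has expressed Cre from the Klb allele, so the reporter records past and not only present expression. All 6 libraries share this genotype, and no untreated, control or reporter-negative group is among the samples used here. Each of 3 captures pooled 3 hypothalami, with digestion in pronase (2 mg/ml, 30 min, 37 °C) and a sort for living tdTomato cells, and each capture was read with 2 targeted primer panels on the BD Rhapsody platform. The sources used here give neither the age nor the sex of the mice, the label calls the population Klb-expressing cells, and animals cannot be told apart within a pool.

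The unit of measurement is the UMI, 1 counted molecule of an amplified gene in 1 cell barcode. Of 1858 barcodes, 1253 had at least 20 UMIs and 5 genes and were kept as cells, 1124 for the larger set and 129 for the smaller. The larger set was read in panel 1 of replicate 1 (950 cells, median 51 UMIs) and in panel 2 of replicates 1, 2 and 3 (44, 43 and 87 cells, medians 115.5, 1352 and 1068 UMIs). The smaller set was read in panel 1 of replicates 2 and 3 (25 and 104 cells, medians 1044 and 705 UMIs). The cells called panel 1 of replicate 3 here were taken from the sample labelled panel 2 of replicate 3. They are its barcodes with counts in the smaller set. Libraries are named by panel (P) and replicate (R), as P1R1. The library labelled P1R1 holds the gene set that the other captures carry as panel 2, so it is given apart and enters no mean. The library labelled P2R1 stands apart in another way, with 11423 UMIs in all, 50 genes detected and no reporter UMI. The reporter was in 29.6% of cells of P1R1, 95.3% of P2R2 and 98.9% of P2R3. Both libraries of replicate 3 shared 2 cell indices, and no other pair shared any. A further 21 barcodes stand in the tables of 2 replicates and were left out, and the values they change are given with and without them.

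The labelled cell types were checked first. Fcer1g, a myeloid gene of the Fc receptor complex, was in all cells of the 3 libraries of panel 2, and the complement gene C1qa, a microglial marker, in all cells of the smaller set. Markers of other cell types were as widespread. The oligodendrocyte gene Bcas1 was in all cells of panel 2 and the vessel wall actin gene Acta2 in 98.9% to 100%. Mag, another oligodendrocyte gene, was in all cells of the smaller set. Of all UMIs, 85.0% in P1R2 and 92.7% in P1R3 were C1qa. The astrocyte glutamate transporter Slc1a2 was at 0 in all 4 libraries of the larger set, and angiotensinogen (Agt), another astrocyte marker, was at 0 in both libraries of the smaller set. The cells are therefore described by the genes they carried and are called neither tanycytes nor astrocytes. A cell class that should lack these 6 genes could not be set apart, so no background share is given beside theirs.

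Vim was found in 2 of the 4 libraries that measured it. P1R1 had Vim UMIs in 503 of 950 cells (52.9%, exact 95% interval 49.7 to 56.2). Counts were 0 of 44 cells in P2R1 and 0 of 43 in P2R2, which allows shares of up to 6.82% and 6.98%, and 76 of 87 in P2R3 (87.4%, 78.5 to 93.5). P2R3 thus stood far above the other captures of panel 2, and the mean over captures of 29.1% ± 50.4 (SD, n = 3) describes none of them. Of every 1000 UMIs, Vim took 11.8 (exact Poisson 95% interval 11.1 to 12.4) in P1R1 and 2.55 (2.26 to 2.87) in P2R3. The counts of 0 allow up to 0.263 in P2R1 and up to 0.0377 in P2R2, so the order of the 2 lowest libraries is not set. Intervals and limits cover counting error only.

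Nes was found in 3 of its 4 libraries. Its UMIs were in 250 of 950 cells in P1R1 (26.3%, 23.5 to 29.2), 0 of 44 in P2R1, 22 of 43 in P2R2 (51.2%, 35.5 to 66.7) and 48 of 87 in P2R3 (55.2%, 44.1 to 65.9). P2R2 and P2R3 had overlapping intervals and both lay above P2R1. The level per 1000 UMIs was 4.12 (3.74 to 4.53) in P1R1, 0.704 (0.532 to 0.914) in P2R2 and 0.758 (0.604 to 0.940) in P2R3, the last 2 again overlapping. In P2R2, 1 cell held 23 of the 56 Nes UMIs, and without it the level was 0.421 (0.290 to 0.592). That lies below the interval of P2R3 with all its cells. It overlaps 0.694 (0.546 to 0.870), the level of P2R3 without its own top cell of 8 Nes UMIs. The order of shares and the order of levels therefore differ, P1R1 being lowest of these 3 in share and highest in level, while its median cell held 51 UMIs against 1352 and 1068.

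Gfap was in the same 3 libraries as Nes. Cells with a UMI numbered 255 of 950 in P1R1 (26.8%, 24.0 to 29.8), 0 of 44 in P2R1, 14 of 43 in P2R2 (32.6%, 19.1 to 48.5) and 74 of 87 in P2R3 (85.1%, 75.8 to 91.8). The intervals of P2R2 and P2R3 did not overlap here, unlike for Nes. Per 1000 UMIs Gfap stood at 4.42 (4.02 to 4.83) in P1R1, then at 2.27 (1.99 to 2.57) in P2R3 and at 0.201 (0.115 to 0.327) in P2R2, 3 levels with separate intervals.

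Gja1, the gap junction gene, had an order of its own. It was carried by 576 of 950 cells in P1R1 (60.6%, 57.4 to 63.8), 43 of 44 in P2R1 (97.7%, 88.0 to 99.9), 0 of 43 in P2R2 and 17 of 87 in P2R3 (19.5%, 11.8 to 29.4). The library in which the 3 filament genes were at 0 was thus the one in which nearly every cell carried Gja1. Its level per 1000 UMIs was 16.2 (15.4 to 16.9) in P1R1 and 22.8 (20.2 to 25.8) in P2R1, against 0.192 (0.119 to 0.293) in P2R3 and at most 0.0377 in P2R2. With the 21 barcodes found in the tables of 2 replicates kept, the share in P2R2 would be 29.7% for Gja1 instead of 0 and 45.3% for Gfap instead of 32.6%. Of the 4 genes, Gja1 alone had a higher level in P2R1 than in P1R1. Without 1 cell with 50 Gja1 UMIs the level in P2R1 was 18.9 (16.4 to 21.6), which overlaps P1R1 with all its cells. It does not overlap 14.4 (13.7 to 15.2), the level of P1R1 without its own top cell of 239 Gja1 UMIs. The means over captures of panel 2 were 35.4% ± 30.8 for Nes, 39.2% ± 42.9 for Gfap and 39.1% ± 51.7 for Gja1 (SD, n = 3), each with a spread near to or above the mean.

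**Figure D1:**
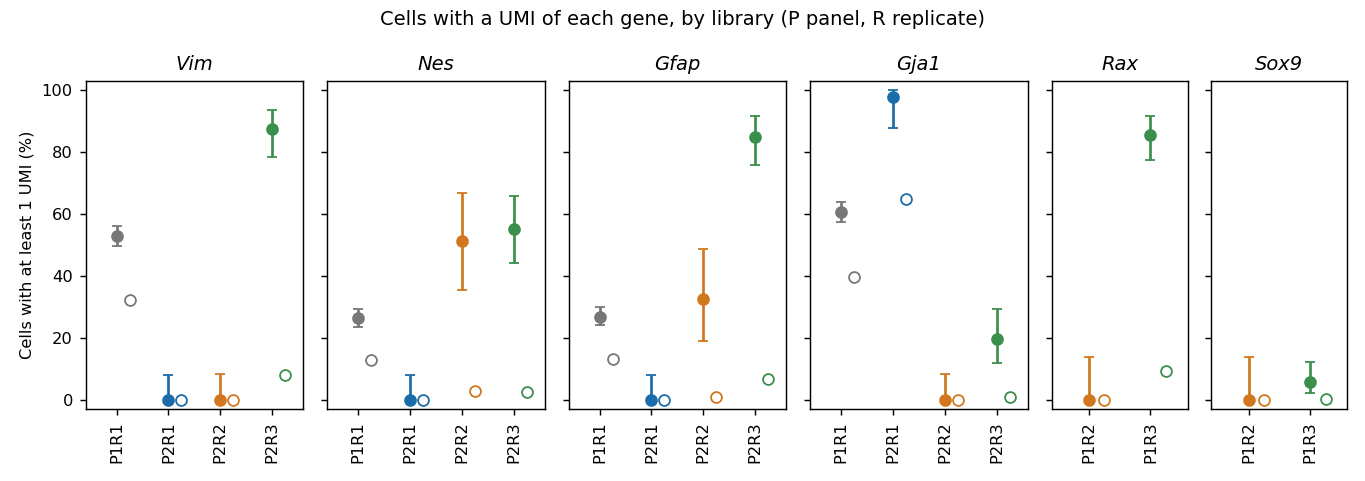
Share of cells with at least 1 UMI (vertical axis, percent) of each gene in each library (P is panel, R is replicate). Filled points are all kept cells with exact 95% intervals, and open points are the share expected when every cell is thinned to 35 UMIs; Vim runs from 0 to 87.4%, Gja1 from 0 to 97.7% and Rax from 0 to 85.6%.

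Rax, the tanycyte transcription factor, was counted in 0 of 25 cells in P1R2, a limit of 12%, and 89 of 104 in P1R3 (85.6%, 77.3 to 91.7). Its level in P1R3 was 2.74 per 1000 UMIs (2.39 to 3.14), against at most 0.116 in P1R2, where the median cell was the deeper of the 2 libraries. Sox9, the astrocyte transcription factor, was counted in 0 of 25 cells in P1R2 and 6 of 104 in P1R3 (5.77%, 2.15 to 12.1), with 7 UMIs in all or 0.0910 per 1000 (0.0366 to 0.188). The limit of 12% in P1R2 lies above that share, so a difference in Sox9 between the captures was not detectable at this depth. Sox9 was read by 2 amplicons and all 7 UMIs lay in 1 of them. Over both captures the mean share was 42.8% ± 60.5 for Rax and 2.88% ± 4.08 for Sox9 (SD, n = 2).

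Read against all genes of a set, presence in some captures and absence in others was common. All 4 genes of the larger set had a UMI in P1R1, where 59.2% of 265 genes did, and in P2R3, where 45.1% of 266 did. In P2R1 it was 1 of 4, beside 18.9% of all genes, and in P2R2 it was 2 of 4, beside 35.1%. Neither gene of the smaller set had a UMI in P1R2, where 18.7% of 75 genes did, and both had one in P1R3, where 36% did. A UMI in at least 50% of cells was found for 2 of the 4 genes in P1R1, 1 in P2R1, 1 in P2R2 and 3 in P2R3, beside 10.2%, 11.3%, 29.1% and 30.8% of all genes. In the smaller set this held for neither gene in P1R2, beside 13.3%, and for Rax in P1R3, beside 17.3%. All 4 genes of the larger set had shares that ranged over 50 percentage points or more between the 3 libraries of panel 2, as did 32.1% of 265 genes and 62% of the 137 with a UMI in any of these libraries. Rax did so in the smaller set and Sox9 did not, beside 12% of 75 genes there and 31% of the 29 with a UMI. As the genes were picked as known markers, these counts are descriptions and carry no test.

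The 2 libraries of replicate 1 are placed in 1 capture by their label alone. They shared 0 cell indices, and the reporter was in 29.6% of cells of P1R1 and 0 of P2R1. Both measured the same 265 genes. Of these, 46 had a UMI in both, among them Gja1, and 111 in P1R1 alone, among them Vim, Nes and Gfap. Another 4 were in P2R1 alone and 104 in neither. Vim was 1 of 11 genes that were in at least 50% of the cells of P1R1 and in none of P2R1. The level of Vim in P1R1, 11.8 per 1000 UMIs, was far above the 0.263 that the count of 0 allows in P2R1. The depth per cell and the pipeline version, 1.3 for P1R1 and 1.5 for the other tables, moved with this difference, and their part in it was not tested.

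Most cells with 1 of these genes held very few molecules of it. In P1R1, the 503 cells with Vim had 1 UMI in 318 cells, 2 in 88, 3 to 5 in 68 and more in 29. Nes had 1 UMI in 180 of its 250 cells, and Gfap in 183 of 255. Single molecules were thus the usual case in that library, which is also the shallowest by cell. In P2R3 the 76 cells with Vim had 1, 2, 3 to 5 and more UMIs in 12, 26, 29 and 9 cells, and Gfap in 24, 20, 24 and 6 cells. Gja1 in P2R1 was the most heavily loaded, with more than 5 UMIs in 14 of 43 cells. Rax in P1R3 had 1 UMI in 33 cells, 2 in 18, 3 to 5 in 36 and more in 2, with no cell above 6.

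**Figure D2:**
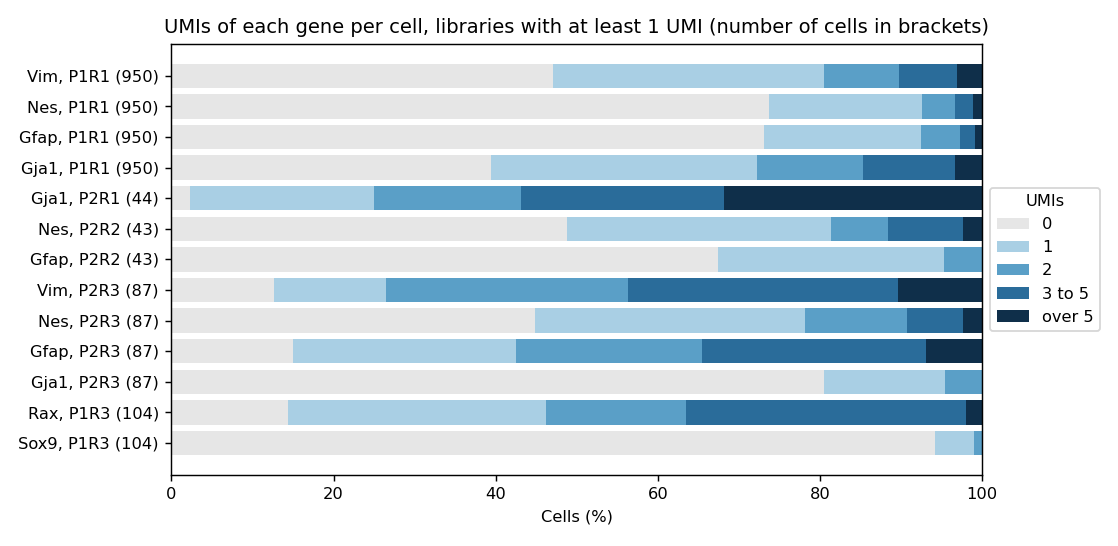
Percent of cells (horizontal axis) with 0, 1, 2, 3 to 5 or over 5 UMIs of a gene, for each library in which the gene had a UMI, with the number of cells in brackets. Gja1 in P2R1 has 14 of 44 cells over 5 UMIs, while Nes and Gfap in P1R1 are mostly at 0 or 1.

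The shares of most genes were close to those that depth and the gene's own UMI total in the library give. Closeness to that expectation does not show that cells were alike, as the spread given below for Gfap in P1R1 shows. If every cell of a library held the same fraction of a gene, its depth would give Vim in 52.4% of cells of P1R1, and 52.9% were found. For Nes, Gfap and Gja1 that expectation was 27.9%, 29.2% and 60.8%, beside 26.3%, 26.8% and 60.6% found. In P2R3 it was 92.8% for Vim, 58.1% for Nes, 90.7% for Gfap and 20.9% for Gja1, each within 6 points of the share found. Rax was expected in 84.0% of cells and found in 85.6%. The differences were wider for Gja1 in P2R1, found in 97.7% where depth gives 86.7%, and for Nes in P2R2, found in 51.2% where depth gives 64.6%. The expectation for Nes in P2R2 was raised by 1 cell that held 23 of the 56 Nes UMIs. Without that cell the level fell from 0.704 to 0.421 per 1000 UMIs and the share found was 50%. The expectation was not computed again without it.

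Each library was also split at its median depth. Vim in P1R1 was in 32.9% of the shallower cells (median 30 UMIs) and 73.4% of the deeper ones (median 120), at 11.1 and 11.9 per 1000 UMIs. Nes went from 9.79% to 43.2%, Gfap from 10.6% to 43.4% and Gja1 from 40.8% to 80.9% between the same cells. Rax was in 78.8% of the shallower and 92.3% of the deeper cells of P1R3. The share of cells rose with depth in all of these. Gja1 in P2R1 also rose in share, from 95.5% to 100%, while its level was 34.4 per 1000 UMIs in the shallower cells and 21.1 in the deeper. Levels were likewise lower in the deeper cells for Nes (1.49 and 0.388) and Gfap (0.307 and 0.159) in P2R2, for Gja1 in P2R3 (0.236 and 0.168) and for Rax in P1R3 (2.89 and 2.66).

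With every cell thinned to 35 UMIs, which left out 306 cells of P1R1 and 1 of P2R1, all shares above 0 were lower. Vim was then expected in 32.3% of cells of P1R1 and 8.06% of P2R3. For Nes the thinned shares were 12.7%, 2.73% and 2.46% in P1R1, P2R2 and P2R3, and for Gfap 13.1%, 0.768% and 6.64%. Gja1 kept 64.8% in P2R1, 39.7% in P1R1 and 0.718% in P2R3. Rax had 9.11% and Sox9 0.299% in P1R3. Outside P1R1, thinned shares of 3% or less stand for about 2 cells or fewer, and no change or order is read from them.

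Spread between cells was measured as the chi-square per degree of freedom of a gene's counts around its library fraction times the depth of each cell, which is about 1 when only counting error separates the cells. Rax had 0.986 in P1R3, beside a median of 1.19 over the 16 genes of that library with at least 50 UMIs, so its UMIs were no more uneven than counting makes them. Nes had 1.18 and Vim 1.39 in P1R1, beside a median of 1.96 over 118 genes, and Gja1 had 2.08. Nes in P2R3 had 1.3, beside a median of 4.55 over 92 genes. The value tends to be higher for genes with more UMIs, as the plot of spread against abundance shows, so a value under the median of a library does not rank a gene among others of its abundance.

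Some higher values rested on single cells and others did so in part. Gfap had 4.41 in P1R1, where 1 cell of 495 UMIs held 57 Gfap UMIs against 2.19 that its depth gives and the next cell held 19. In P2R3 Gfap had 5.60, with 53 UMIs in 1 cell and 12 in the next. Without the top cell the value was 1.08 in P2R3 but still 3.35 in P1R1, beside 1.96 for the median gene. Vim in P2R3 had 3.53, and 1.21 without 1 cell of 28 UMIs. Nes in P2R2 had 14.5, and 1.13 without 1 cell that held 23 of its 56 UMIs, and its level there fell from 0.704 to 0.421 per 1000 UMIs without that cell. Gja1 in P2R1 had 11.7, and 4.18 without 1 cell in which 50 of 246 UMIs were Gja1, beside 3.52 for the median gene. Gfap in P1R1 and Gja1 in P2R1 thus stayed above the median gene of their library without their top cell. The others named here were between 1.08 and 1.21. These cells were singled out after their values were seen.

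The other genes in these cells were set beside what depth gives. The cell with 57 Gfap UMIs held 3 of Vim, 2 of Nes and 11 of Gja1, against 5.83, 2.04 and 8.0. The cell with 53 Gfap UMIs in P2R3, of 2483 UMIs, held 995 UMIs of the myelin gene Mbp against 179. It held 5 of Vim and 1 of Nes, against 6.33 and 1.88. In P2R1 and P2R2 this could not be read, since the other genes were at 0 or near it in the whole library. A cell of 2256 UMIs in P1R1 had the most Vim and the most Nes of that library, 76 and 18 UMIs against 26.6 and 9.30 from depth, and it also held 401 UMIs of Slco1c1, a vessel thyroid hormone transporter, against 79.7. The deepest cell of P1R1, of 3838 UMIs, had the most Gja1, 239 UMIs against 62.0, with 51 of Vim, 9 of Nes and 7 of Gfap against 45.2, 15.8 and 16.9. It held 956 UMIs of the matrix gene Fn1 against 193.

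**Figure D3:**
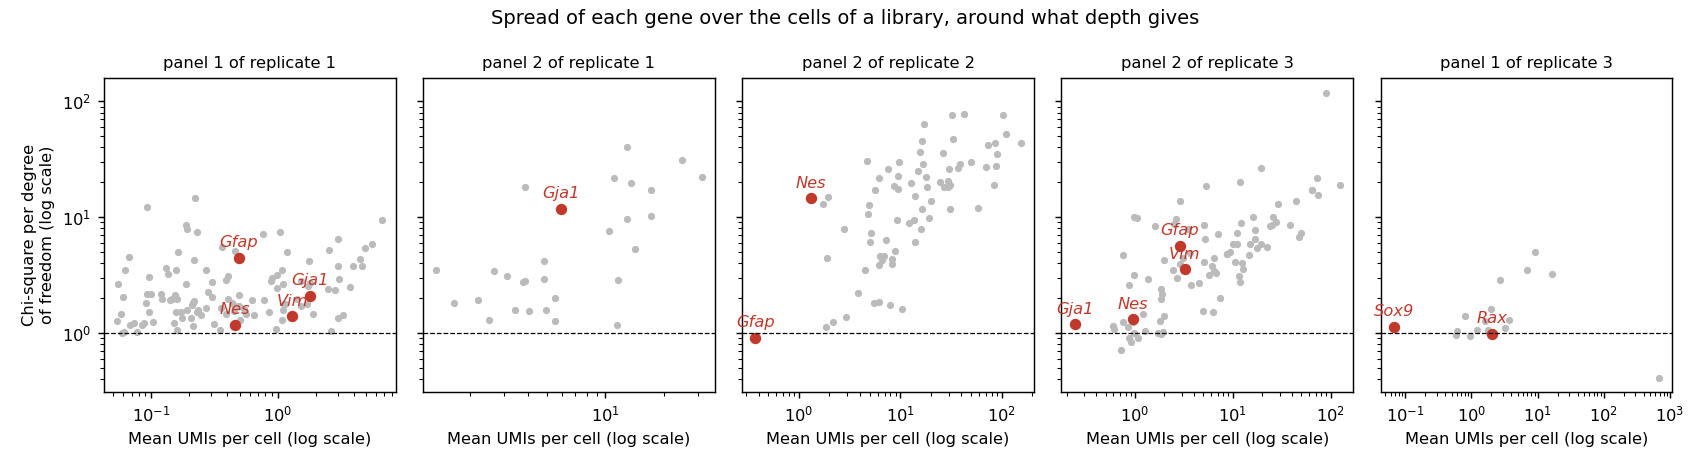
Chi-square per degree of freedom (vertical log axis) against mean UMIs per cell (horizontal log axis) for genes with at least 50 UMIs in a library (grey) and the 6 marker genes (red). The dashed line at 1 is counting error alone; Rax at 0.986 lies on it, while Nes in P2R2 (14.5) and Gja1 in P2R1 (11.7) lie above.

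Pairs of genes were counted in the same cells, beside the count that depth alone gives. That count is built on the single-gene shares from depth, most of which lay above the shares found, so a pair slightly below it shows no avoidance. In P1R1, Vim and Nes shared 181 cells where depth gives 189, Vim and Gfap 183 where it gives 197, and Vim and Gja1 361 where it gives 361. Nes and Gfap shared 118 cells against 123, Nes and Gja1 193 against 207, and Gfap and Gja1 203 against 216. All 6 pairs were within 15 cells of the count from depth. In that library 179 cells had none of the 4 genes, 290 had 1, 243 had 2, 144 had 3 and 94 had all 4. In P2R3 the 6 pairs ran from 65 cells against 73.5 for Vim and Gfap to 11 against 11.4 for Nes and Gja1, and 42 of 87 cells had exactly 3 of the genes. Nes and Gfap shared 10 cells of P2R2 against 8.80, and Rax and Sox9 shared 5 cells of P1R3 against 5.85.

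Reporter RNA could be compared with these genes in P1R1 alone, where it was neither at 0 nor in nearly all cells. At full depth, Vim was in 73.0% of the 281 cells with a TdTomato UMI and 44.5% of the 669 without, Nes in 43.8% and 19.0%, Gfap in 43.4% and 19.9%, and Gja1 in 79.4% and 52.8%. The cells with the reporter were deeper, with a median of 131 UMIs against 41. Thinned to 35 UMIs the shares were 32.8% and 32.1% for Vim, 12.8% and 12.7% for Nes, 12.8% and 13.3% for Gfap, and 39.7% and 39.6% for Gja1. Thinning kept 249 of the 281 cells with the reporter and 395 of the 669 without, those with at least 35 UMIs. Among these cells, at equal depth, the differences were thus at most 1 percentage point. Per 1000 UMIs, Vim stood at 12.5 (11.6 to 13.4) with and 10.7 (9.77 to 11.7) without the reporter, intervals that overlap only at their ends, and the other 3 genes overlapped more widely. With 1 library there is no replicate of this comparison.

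**Figure D4:**
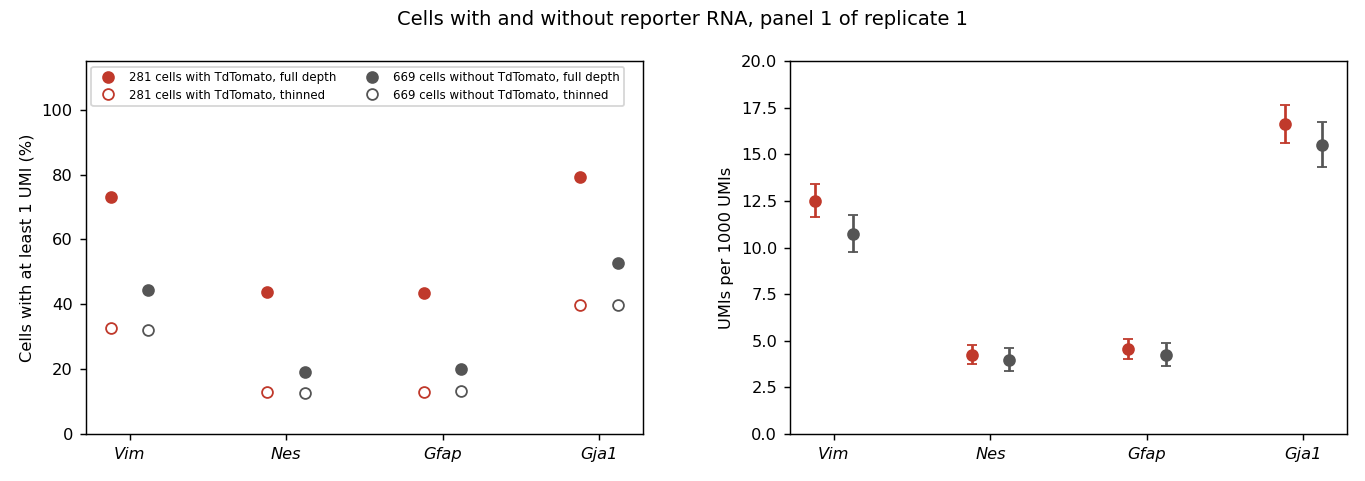
Share of cells with a UMI (left, percent; filled at full depth, open thinned to 35 UMIs) and UMIs per 1000 UMIs with exact Poisson 95% intervals (right) for cells with (red) and without (grey) TdTomato UMIs in P1R1. The filled points differ, as for Vim at 73.0% and 44.5%, and the open points lie together at 32.8% and 32.1%. Open points cover only the 249 cells with and 395 without TdTomato that had at least 35 UMIs.

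The other genes of the tanycyte list differed between libraries as well. The larger set measured 9 of the 16 listed genes, Vim and Nes included, and that library had a UMI of 7 of them, where 59.2% of all genes had one. Gpr50, an orphan receptor of tanycytes, was in 56.1% of its cells, the neural stem cell factor Sox2 in 40.5%, the thyroid hormone binding protein Crym in 39.3%, the Wnt antagonist Frzb in 16.9% and Ppp1r1b, a phosphatase inhibitor, in 2.74%. Of the 9 genes, 1, 2 and 4 had a UMI in P2R1, P2R2 and P2R3, beside 18.9%, 35.1% and 45.1% of all genes, so the count in P2R3 was near the background. Beside Vim and Nes these were a single Frzb UMI in P2R1, 2 Crym UMIs in P2R2, and in P2R3 Ppp1r1b (36.8% of cells) and Sox2 (11.5%). Fgf10 and Scn7a were at 0 in all 4 libraries. The list as a whole took 48.7, 0.0875, 0.729 and 3.88 of 1000 UMIs, in P1R1, P2R1, P2R2 and P2R3.

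Of the 18 astrocyte genes, the larger set measured Gfap, Gja1 and Slc1a2, which took 20.6, 22.8, 0.201 and 2.46 of 1000 UMIs in the same order. The smaller set measured Sox9, Agt and Ntsr2, a neurotensin receptor of astrocytes. Ntsr2 was at 0 in P1R2 and in 43.3% of cells in P1R3 (33.6 to 53.3), the library in which Rax was found. Foxj1, the factor that drives cilia in ependymal cells, was in 12.5% of the cells of P1R3, and the ependymal genes Ccdc153 and Tmem212 were at 0 wherever measured. Rarres2, on the same list, was in 87.4% to 100% of cells in all 6 libraries. The 4 measured microglial genes took 951 of 1000 UMIs in the cells with Rax and 965 in those without, with medians of 739 and 548 UMIs per cell. Most of this sum was C1qa, which alone took 927 of 1000 UMIs in P1R3. There, 3 of the 4 genes were in at least 50% of cells, while Aif1 was in 3.85%.

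Markers of other cell types moved with the libraries too. All 3 measured endothelial genes were detected in P1R1, where they took 85.2 of 1000 UMIs, and their sum lay between 1.58 and 9.82 in panel 2. The 1 measured myeloid gene ran from 26.9 in P1R1 to between 83.5 and 121 in panel 2, and the 4 measured oligodendrocyte genes from 17.5 to 95.8 over all 4 libraries. Of the neuronal genes, the vesicle gene Syt1 was at 0 in every library, while Stmn2 was in 95.5% of cells of P2R1 and Snap25 in 76.9% of cells of P1R3. Within P1R1, the endothelial genes took 89.7 of 1000 UMIs over the cells with Vim and 69.1 over those without, but the median cell had 69.4 and 69.8, so the sums differed while the medians lay within 1 of 1000 UMIs. The part of these other cell types in the results above was not tested.

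**Figure D5:**
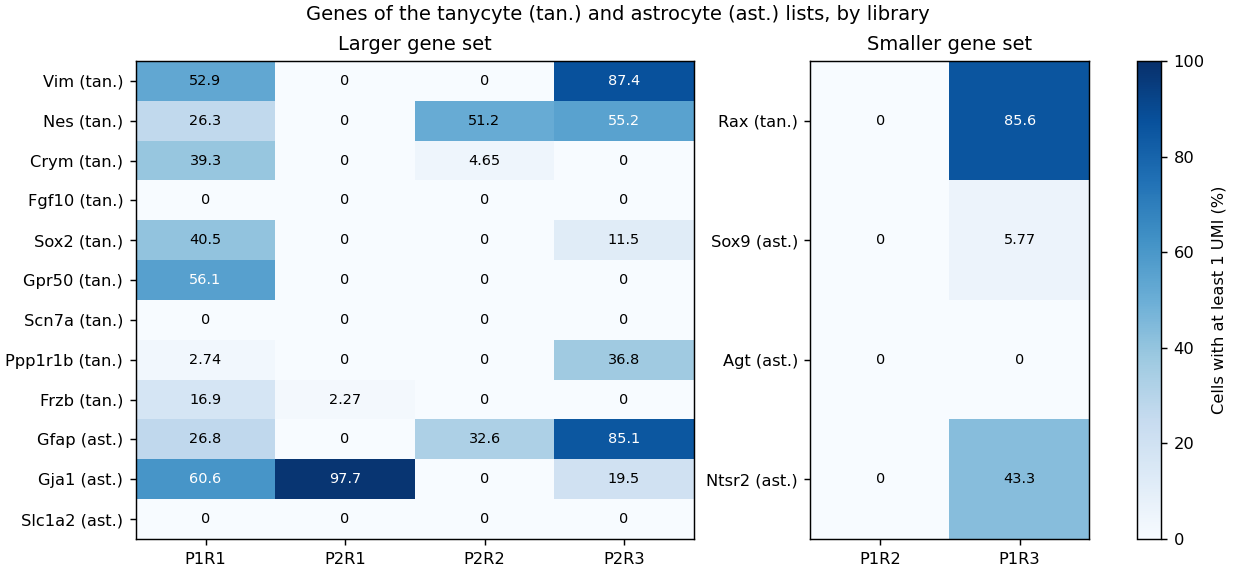
Percent of cells with at least 1 UMI (colour and number) of each measured gene of the tanycyte and astrocyte lists, by library (P is panel, R is replicate). Vim, Crym, Sox2 and Gpr50 are in 39.3% to 56.1% of cells of P1R1 and at 0 in P2R1, whose only high gene is Gja1 at 97.7%.

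Genes with the most similar pattern of shares were named by the smallest mean absolute difference over the libraries of a set, which share depth and capture. For Vim, among 172 genes over 4 libraries, these were the collagen Col3a1 (4.60 percentage points), Itih5 (8.19) and the chemokine Cxcl12 (9.75), all at or near 0 in P2R1 and P2R2. Nes and Gfap had the same 3 neighbours, the clock gene Per2 (5.71 and 6.75), the cystine transporter Slc7a11 (6.69 and 9.59) and the clock-linked repressor Bhlhe40 (7.95 and 6.04). Gja1 had the least close neighbours, Gfra2 (11.4), Stmn2 (18.2) and Tmem237 (18.6). Rax was nearest to the PACAP receptor gene Adcyap1r1 (2.88), Gng8 (4.33) and Snap25 (10.3), and Sox9 to Slc38a5 (1.92), Pmch and Trh (2.40 each), among 28 genes over 2 libraries.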

How the data were processed

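Each deposited table gives molecule counts (UMIs) for every barcode and amplicon, and the authors did not normalize them. Per the file headers, the tables come from version 1.3 (P1R1) or 1.5 (all others) of the BD pipeline for targeted Rhapsody data. Per the submitters' processing notes, the build was mm9. The sources used here name no aligner and no rule for calling cells. Columns with a header ending in "_end" hold the same deposited counts.

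The 6 genes and the marker lists were chosen with earlier results of these data known. Amplicons were summed by gene, and barcodes with at least 20 UMIs and 5 genes were kept, which left out 605 of 1555 in P1R1 (panel 1 of replicate 1) and none in the other libraries. Barcodes of replicate 3, for both gene sets, were taken from 1 table, the one labelled panel 2 of replicate 3. The 21 barcodes found in the tables of 2 replicates were left out. Column names were checked by the correlation across amplicons with P2R3, which was 0.555 to 0.829 as named and at most 0.166 with columns moved by 1 place. In the smaller set, P1R2 correlated with P1R3 at 0.773 as named and at most 0.0878 with columns moved by 1 place.

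Shares have exact Clopper-Pearson and levels exact Poisson 95% intervals. A count of 0 allows up to 3 counts. Means are over captures, and cells were not used as replicates. The cells are 1 sorted population, so no groups were tested. Nothing in the labels says that captures were made on separate days. Thinning used the exact expectation without replacement. The scripts were tested on simulated data. Doublets were not called, and removing the 5% deepest cells was tried instead. Named genes were the 6 genes, the other measured genes of both lists, the 3 nearest genes of each, the gene with the most UMIs of each library and TdTomato. Genes named outside this rule, chosen after their values were seen, are Slco1c1, Fn1, Mbp, Acta2, Mag, Aif1, and the ependymal and neuronal markers Foxj1, Ccdc153, Tmem212, Rarres2 and Syt1. Python 3.11.15, numpy 2.4.6, pandas 2.3.3, scipy 1.17.1 and matplotlib 3.10.9 were used.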

Additional observations from a re-analysis of the deposited data

Results flagged for a closer look

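Molecules of these genes were also present in barcodes that no comparison used. In the 605 barcodes of panel 1 of replicate 1 that fell under the minimum for a cell, with a median of 11 UMIs, Gja1 was in 15.9%, Vim in 11.4%, Nes in 4.79% and Gfap in 3.97%. Their levels there were 19.2, 10.2, 4.29 and 3.55 per 1000 UMIs, beside 16.2, 11.8, 4.12 and 4.42 in the kept cells of that library.

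In the 21 barcodes that stand in the tables of 2 replicates, Gja1 was in 90.5% (exact 95% interval 69.6 to 98.8) and Gfap in 71.4% (47.8 to 88.7), with a median of 294 UMIs. Which capture these barcodes came from cannot be told apart. Past the place of an extra column of panel 2 of replicate 3, their profile correlated with that library at 0.0564 as named and at 0.485 with columns moved by 1 place, and before it at 0.616 as named. Vim and Nes lie past that place and are given no value here, while Gfap and Gja1 lie before it.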

How the results depend on the processing

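Of 74 other settings of the means over captures, 70 moved the value by less than its SD, which was near to or above the mean and so is a loose measure. Thinning to 35 UMIs lowered every mean share, from 29.1% to 2.69% for Vim, 35.4% to 1.73% for Nes (4.44% at 100 UMIs), 39.2% to 2.47% for Gfap, 39.1% to 21.8% for Gja1, 42.8% to 4.55% for Rax and 2.88% to 0.149% for Sox9. Only for Nes did this exceed the SD. With C1qa left out of the total, the level of Rax moved from 1.37 to 18.7 per 1000 UMIs and that of Sox9 from 0.0455 to 0.620. Leaving out 1 capture at a time, mean shares ran from 0% to 43.7% for Vim, 25.6% to 53.2% for Nes, 16.3% to 58.8% for Gfap, 9.77% to 58.6% for Gja1, 0% to 85.6% for Rax and 0% to 5.77% for Sox9. Mean levels ran from 0 to 1.27 for Vim, 0.352 to 0.731 for Nes, 0.101 to 1.23 for Gfap, 0.0959 to 11.5 for Gja1, 0 to 2.74 for Rax and 0 to 0.0910 for Sox9. Replicate 3 alone carried Vim, Rax and Sox9 in these means. Replicate 1 carried nearly all of the Gja1 level and most of its share, which was still 9.77% without that replicate. Of 144 settings of the shares in single libraries, 49 moved past the counting interval, 40 down and 9 up, 25 of them by thinning and 13 by asking for at least 2 UMIs. Keeping the 21 barcodes found in the tables of 2 replicates gave Gja1 in 29.7% of cells of panel 2 of replicate 2 instead of 0. Leaving the extra column out of the total, a setting chosen after seeing the data, as was leaving out the top cell of a gene, changed no mean by more than its SD. The depth limits Sox9 and the counts of 0 in the 25 to 44 cells of the smallest libraries. No paired analysis was possible because no test between groups was made, and the groups share only replicate number 1 for the larger set and none for the smaller.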
